A study of Rattus norvegicus with 9 samples.

Results

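The genes described here are 10 transcription factors of the cardiac lineage, Gata4, Gata6, Nkx2-5, Tbx5, Tbx20, Hand1, Hand2, Mef2a, Mef2d and Tead1. The rule was a list of symbols and used no measured value, although the list was drawn up with earlier results of these data known, and all 10 had a row among the 17327 genes of the read count table. The cells were neonatal rat ventricular myocytes, heart muscle cells taken from newborn rats into primary culture. Before total RNA was taken for sequencing, cultures received either vehicle, or 50 µM phenylephrine for 48 hours, or 10 nM IGF1 for 48 hours, with 3 samples in each of the 3 groups. Phenylephrine is an alpha-adrenergic agonist and IGF1 is a peptide growth factor, and both are used to make such cells grow in size. The labels give no strain. They do not tell if replicates are separate cultures or animals, and p-values therefore cover the spread among these samples alone, part or all of which may be technical.

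During heart development these factors act together in the cells that become myocytes. GATA4, NKX2-5 and TBX5 bind DNA side by side and bind one another at the control regions of contractile and natriuretic peptide genes, and GATA6 shares the zinc fingers of GATA4. TBX20 is a T-box factor, HAND1 and HAND2 are basic helix-loop-helix factors linked to the left and right ventricle in the embryo, MEF2A and MEF2D are MADS-box factors held in check by class IIa histone deacetylases, and TEAD1 binds the MCAT element and is the DNA-binding partner of YAP. In grown heart muscle, GATA4 and MEF2 factors are known for their part in the response to adrenergic stimulation.

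The RefSeq table of promoter windows, on the GRCr8 build, held 8 of the 10 factors and had no entry used here for Gata4 and Tead1. The 250 bases before the annotated start are printed for the MEF2 and HAND pairs, the pairs in which at least 1 window held a match other than CANNTG. The letters searched, on both strands, were AGATAA for GATA factors, GGAATG for TEAD, CACTTAA for NKX2-5, AGGTGTGA for T-box factors, CANNTG for helix-loop-helix factors and TATAAA for the TATA box, as well as the MEF2 box and the CArG box of SRF. Capitals mark any match except CANNTG, which 65.5% of all 33469 windows held, and no match in capitals overlaps another.
Mef2a (GRCr8, chr1:130392163-130392412, minus strand): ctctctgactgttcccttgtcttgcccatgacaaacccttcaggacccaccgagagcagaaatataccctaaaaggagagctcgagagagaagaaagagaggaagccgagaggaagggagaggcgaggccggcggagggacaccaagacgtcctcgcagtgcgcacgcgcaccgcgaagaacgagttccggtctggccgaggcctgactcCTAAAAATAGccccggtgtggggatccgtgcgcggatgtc
Mef2d (GRCr8, chr2:175904082-175904331, plus strand): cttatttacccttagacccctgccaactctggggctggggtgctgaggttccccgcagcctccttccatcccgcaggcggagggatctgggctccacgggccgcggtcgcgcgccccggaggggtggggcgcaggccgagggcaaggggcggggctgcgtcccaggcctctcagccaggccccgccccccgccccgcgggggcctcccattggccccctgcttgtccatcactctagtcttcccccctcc
Hand1 (GRCr8, chr10:42509685-42509934, minus strand): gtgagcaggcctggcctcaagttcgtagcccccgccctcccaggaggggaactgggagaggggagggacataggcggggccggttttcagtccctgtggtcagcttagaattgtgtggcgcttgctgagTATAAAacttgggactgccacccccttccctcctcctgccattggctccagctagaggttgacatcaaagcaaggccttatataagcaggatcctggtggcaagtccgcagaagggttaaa
Hand2 (GRCr8, chr16:37931489-37931738, minus strand): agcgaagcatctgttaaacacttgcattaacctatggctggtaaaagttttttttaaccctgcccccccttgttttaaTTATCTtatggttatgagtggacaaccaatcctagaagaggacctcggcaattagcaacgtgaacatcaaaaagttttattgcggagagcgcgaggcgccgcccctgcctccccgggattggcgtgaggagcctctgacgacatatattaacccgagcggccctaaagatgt
The Mef2a window held a MEF2 box, CTAAAAATAG, beginning 40 bases before the start. A MEF2 box stood in 991 of the 33469 windows (2.96%). The Mef2d window, with a GC content of 73.2% against a median of 51.2% over all windows, held none of the motifs searched. Hand1 had a TATAAA (12.9% of windows) beginning 121 bases before the start, and Hand2 had the AGATAA letters on the other strand, as ttatct (10.3% of windows). The windows of Gata6, Nkx2-5, Tbx5 and Tbx20 held no match of the kind marked by capitals. The TEAD letters stood in 12.1% of all windows, the NKX2-5 letters in 2.06%, the T-box letters in 0.959% and the CArG box in 1.5%, and none of the 8 windows held them. A match describes the letters only.

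Total counts per sample were 38659775 to 48505265 with vehicle and 31274396 to 33607863 with phenylephrine. They were 31987197 in IGF1 replicate 1 and 42737982 and 46221459 in IGF1 replicates 2 and 3. Depth therefore went with group, and its part in the results was not tested. Levels are given in CPM, the count of a gene relative to the total of its sample after scaling by normalization factors, and 1 CPM rested on 29.1 to 51.6 reads. These normalization factors were 1.06 to 1.08 with vehicle and 0.931 to 0.936 with phenylephrine. They were 0.950 in IGF1 replicate 1 and 1.04 and 1.03 in IGF1 replicates 2 and 3. CPM are not corrected for gene length, so a gene is compared only with itself across samples. IGF1 replicate 1 stood apart: 299 and 260 of 9526 genes differed over 1.5-fold between it and IGF1 replicates 2 and 3, while the other within-group pairs gave 12 to 47 genes. In that sample Nppa was at 2848 CPM, against 591 and 630.0 CPM in IGF1 replicates 2 and 3 and 7792 to 8246 CPM with phenylephrine. Nppb, Ctgf and Gata4 in that sample also lay between IGF1 replicates 2 and 3 and the phenylephrine samples. Some genes lay outside both. Myl2 was at 3755 CPM there, against 1965 and 2094 CPM in IGF1 replicates 2 and 3 and 2369 to 2504 CPM with phenylephrine. Tead1, at 98.3 CPM, was below all of these samples. Hcn4, at 51.5 CPM, lay nearer to IGF1 replicates 2 and 3 (61.4 and 58.0 CPM) than to phenylephrine (23.9 to 27.2 CPM). Whether the library labelled IGF1 replicate 1 is as labelled cannot be settled from the files, and every IGF1 mean and fold with all samples includes it. Values without it are therefore given beside the IGF1 results. All 11 cardiomyocyte markers looked for were detected, with a summed level of 52221 to 56250 CPM with vehicle, 77218 to 78332 CPM with phenylephrine, 81875 CPM in IGF1 replicate 1 and 58972 and 60403 CPM in IGF1 replicates 2 and 3.

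With phenylephrine against vehicle, 4 of the 10 factors rose and 4 fell. Gata4, Nkx2-5, Tbx20 and Mef2a were higher and Gata6, Tbx5, Hand1 and Mef2d were lower, while Hand2 and Tead1 did not pass the test. The test was edgeR's quasi-likelihood F test with Benjamini-Hochberg adjustment over all 11873 genes tested and a threshold of 0.05, and all 10 factors were among the genes tested. In this comparison 56.8% of all tested genes passed (27.9% higher and 28.9% lower). The samples of the compared groups did not overlap for 8 of the 10 factors, against 66.6% of tested genes. The median log2 fold change of the factors was -0.08, beside -0.03 over all genes tested, with a range from -0.61 for Tbx5 to 0.70 for Gata4. The SE and p of this comparison also carry the spread of IGF1 replicate 1, because the fit covers all 3 groups. Without that sample the SE of each of the 10 factors was smaller. Gata4 was then at log2 0.70 (SE 0.03, adjusted p = 1.4e-24) and Nkx2-5 at 0.23 (SE 0.03, 3.4e-07). Tbx20 was at 0.28 (SE 0.04, 3.9e-07), Mef2a at 0.22 (SE 0.03, 8.5e-09) and Hand1 at -0.41 (SE 0.13, 0.0052).

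**Figure D1:**
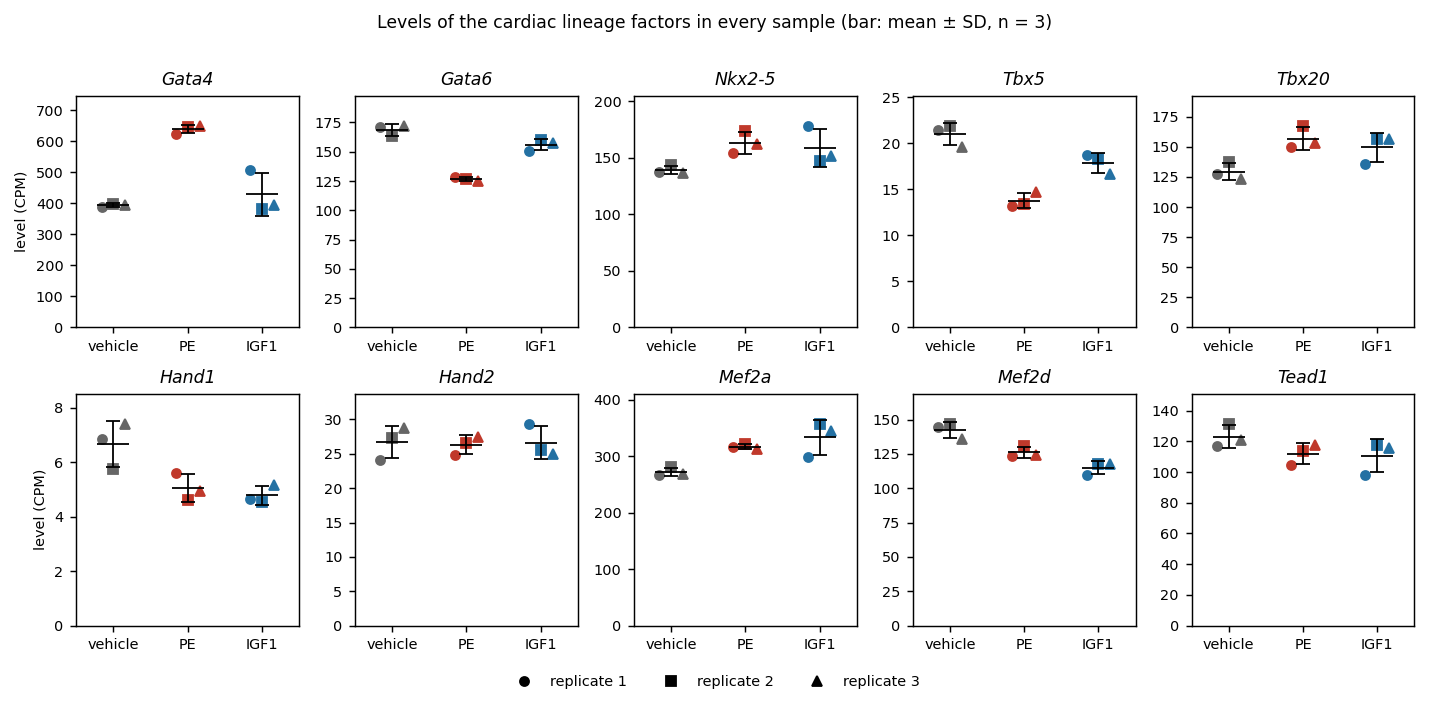
Level of each of the 10 factors in CPM (y axes from 0) in every sample of the vehicle, phenylephrine (PE) and IGF1 groups, with a marker shape for each replicate number and a bar for the mean ± SD of 3 samples. Gata4 with phenylephrine lies between 624 and 649.6 CPM, above every other sample, and IGF1 replicate 1 stands above IGF1 replicates 2 and 3 at 508 CPM.

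Of the GATA factors, Gata4 was the factor with the largest rise. It was at 389, 399 and 396 CPM in the vehicle samples, 624, 646 and 649.6 CPM with phenylephrine, and 508, 383 and 394 CPM with IGF1. Every phenylephrine sample lay above every sample of the other groups, and IGF1 replicates 2 and 3 lay at or near the vehicle level. The rise from 395 ± 5.15 to 639.9 ± 13.8 CPM (SD, n = 3) was 1.62-fold (log2 0.70, SE 0.09, edgeR adjusted p = 7.3e-05). Against IGF1, Gata4 was 1.49-fold higher with phenylephrine (log2 0.58, SE 0.09, adjusted p = 2.9e-04), and 0.72 without IGF1 replicate 1 (SE 0.03, adjusted p = 4.4e-23). IGF1 itself left no call on Gata4: log2 0.12 (SE 0.09, adjusted p = 0.31) with all samples and -0.02 (SE 0.03, adjusted p = 0.58) without that sample.

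Gata6 went the other way under phenylephrine. Its levels were 172, 163 and 172 CPM with vehicle, 128, 127 and 125 CPM with phenylephrine and 151, 160.3 and 157 CPM with IGF1. The groups did not overlap, in the order vehicle, IGF1, phenylephrine. Phenylephrine lowered it from 169 ± 5.07 to 127 ± 1.42 CPM (SD, n = 3; 1.33-fold, log2 -0.41, SE 0.04, adjusted p = 6.0e-07), and it was also lower than with IGF1 (log2 -0.30, SE 0.04, adjusted p = 1.5e-05, and -0.32 without IGF1 replicate 1). The fall with IGF1 was small (log2 -0.11, SE 0.04, adjusted p = 0.029). Its call ended when only the vehicle and IGF1 samples were fitted (adjusted p = 0.059) and without vehicle replicate 1 (0.073) or 3 (0.079), and it held without IGF1 replicate 1 (log2 -0.09, adjusted p = 0.025).

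Nkx2-5, the homeobox factor among the earliest markers of the heart field, rose modestly. It was at 137, 143 and 137 CPM with vehicle, 154, 173 and 162 CPM with phenylephrine and 178, 147 and 152 CPM with IGF1. Both treated groups lay wholly above vehicle and overlapped each other, with IGF1 replicate 1 the highest of all samples. The rise was 1.17-fold with phenylephrine (log2 0.23, SE 0.07, adjusted p = 0.0087) and 1.14-fold with IGF1 (log2 0.19, SE 0.07, adjusted p = 0.027). Without IGF1 replicate 1 the IGF1 rise was 0.10 (SE 0.04, adjusted p = 0.023). The direct comparison gave log2 0.04 (SE 0.07, adjusted p = 0.65) with all samples and 0.13 (SE 0.04, adjusted p = 0.0046) without it. The IGF1 call also ended without vehicle replicate 1 (adjusted p = 0.10; log2 0.17) or 3 (0.10; log2 0.17).

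The T-box factors moved apart. Tbx5, known from the atria, the left ventricle and the conduction system, was at 21.5, 21.9 and 19.6 CPM with vehicle, 13.2, 13.4 and 14.7 CPM with phenylephrine and 18.7, 18.2 and 16.7 CPM with IGF1. The groups did not overlap, and phenylephrine gave the lowest values. Tbx5 fell 1.52-fold with phenylephrine (log2 -0.61, SE 0.08, adjusted p = 1.0e-05) and 1.18-fold with IGF1 (log2 -0.23, SE 0.07, adjusted p = 0.018), and phenylephrine lay below IGF1 by log2 -0.37 (SE 0.08, adjusted p = 9.5e-04). The call with IGF1 ended without vehicle replicate 1 (adjusted p = 0.054), vehicle replicate 2 (0.066; log2 -0.21) or IGF1 replicate 3 (0.076; log2 -0.19), and held without IGF1 replicate 1 (log2 -0.26, 0.0042), as did the difference between treatments (log2 -0.34, 4.5e-04).

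Tbx20, which keeps adult myocytes in their differentiated state, was at 128, 137 and 123 CPM with vehicle, 149.8, 167 and 153 CPM with phenylephrine and 136, 157 and 157 CPM with IGF1. The phenylephrine samples lay above vehicle, whereas IGF1 replicate 1 fell inside the vehicle range. Tbx20 was 1.21-fold higher with phenylephrine (log2 0.28, SE 0.06, adjusted p = 0.0016) and 1.16-fold higher with IGF1 (log2 0.21, SE 0.06, adjusted p = 0.012). The latter was 0.28 (SE 0.04, adjusted p = 2.6e-06) without IGF1 replicate 1, and its call ended without vehicle replicate 1 (0.056) or 3 (0.070) or IGF1 replicate 2 (0.051) or 3 (0.059). The difference between treatments did not pass (log2 0.07, SE 0.06, adjusted p = 0.39, and log2 0.00033, 0.99, without IGF1 replicate 1).

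Of the HAND factors, Hand1 had the lowest read support of the 10 factors. It had 141 to 382 reads a sample and was at 6.85, 5.74 and 7.40 CPM with vehicle, 5.60, 4.60 and 4.94 CPM with phenylephrine and 4.64, 4.54 and 5.18 CPM with IGF1. All treated samples lay below all vehicle samples, and the treated groups overlapped. The fall was 1.32-fold with phenylephrine (log2 -0.41, SE 0.13, adjusted p = 0.015) and 1.39-fold with IGF1 (log2 -0.48, SE 0.13, adjusted p = 0.0061, and -0.46, 0.0046, without IGF1 replicate 1). The phenylephrine call ended without vehicle replicate 3 (log2 -0.33, adjusted p = 0.067) or phenylephrine replicate 2 (log2 -0.34, 0.065). Hand2 was the flattest of the 10, between 24.1 and 29.3 CPM over all 9 samples, with overlap of every pair of groups. Its log2 fold change was -0.02 with phenylephrine (adjusted p = 0.82, with an interval of 2 SE from -0.18 to 0.14) and -0.01 with IGF1 (adjusted p = 0.93, from -0.17 to 0.15). Without IGF1 replicate 1, in which it was highest, the latter was -0.08 (adjusted p = 0.32).

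The MEF2 factors split with phenylephrine as the GATA and T-box pairs did, and like the T-box pair they also split with IGF1. Mef2a was at 267, 281 and 268 CPM with vehicle, 317, 321 and 313 CPM with phenylephrine and 298, 357 and 345 CPM with IGF1. Both treated groups lay above vehicle, and IGF1 replicate 1 was the lowest treated sample. Mef2a rose 1.17-fold with phenylephrine (log2 0.22, SE 0.06, adjusted p = 0.0035) and 1.23-fold with IGF1 (log2 0.29, SE 0.06, adjusted p = 5.2e-04). Without IGF1 replicate 1 the IGF1 rise was 0.37 (SE 0.03, adjusted p = 2.9e-13), and phenylephrine then lay below IGF1 (log2 -0.15, SE 0.03, adjusted p = 1.0e-04), a difference that did not pass with all samples (log2 -0.07, adjusted p = 0.29).

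Mef2d, known as a mediator of stress-dependent remodelling of the heart, fell instead. It was at 144, 147 and 136 CPM with vehicle, 124, 131 and 124 CPM with phenylephrine and 109.8, 118 and 118 CPM with IGF1. The groups did not overlap, and the order was vehicle, phenylephrine, IGF1. The fall was 1.13-fold with phenylephrine (log2 -0.17, SE 0.05, adjusted p = 0.0042) and 1.24-fold with IGF1 (log2 -0.31, SE 0.05, adjusted p = 5.5e-05, and -0.27, 5.1e-08, without IGF1 replicate 1). Phenylephrine lay above IGF1 by log2 0.13 (SE 0.05, adjusted p = 0.023), and by 0.10 (0.022) without that sample. The call of that difference ended with scaling by library size only (log2 0.020, adjusted p = 0.80), with upper quartile scaling (log2 0.10, 0.071) and without phenylephrine replicate 2 (log2 0.10, 0.11).

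Tead1 ranged from 117 to 131 CPM with vehicle, 104 to 118 CPM with phenylephrine and 98.3 to 118 CPM with IGF1, with overlap of all groups. Its log2 fold changes of -0.13 (SE 0.07, adjusted p = 0.12) with phenylephrine and -0.15 (SE 0.07, adjusted p = 0.090) with IGF1 did not pass. With phenylephrine it passed as lower without IGF1 replicate 1 (log2 -0.13, adjusted p = 0.0060), in a fit of the compared groups alone (-0.13, 0.013), with a block for replicate number (-0.14, 0.027) and with upper quartile scaling (-0.20, 0.036). With IGF1 it was at log2 -0.07 (adjusted p = 0.18) without IGF1 replicate 1, and it passed as lower with that block (-0.15, 0.016) and without IGF1 replicate 2 (-0.20, 0.037).

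**Figure D2:**
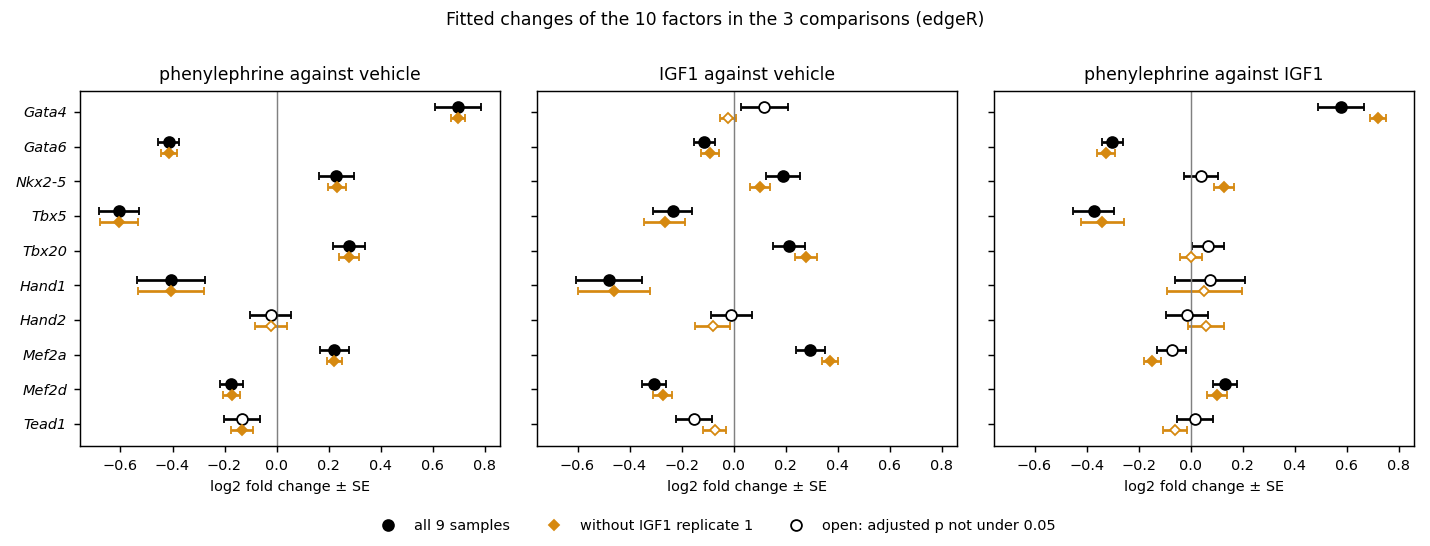
Fitted log2 fold change (x axis) with its SE for each factor in the 3 comparisons, with all 9 samples (circles) and without IGF1 replicate 1 (diamonds), filled where the adjusted p is under 0.05. Gata4 lies at 0.70 and Tbx5 at -0.61 with phenylephrine, while with IGF1 no factor lies beyond -0.48 and 0.29 when all samples are used.

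In all, IGF1 against vehicle left 3 factors higher (Nkx2-5, Tbx20 and Mef2a) and 4 lower (Gata6, Tbx5, Hand1 and Mef2d), beside 48.1% of all tested genes that passed (24.7% higher and 23.4% lower). The samples did not overlap for 6 of the 10, against 56.5% of tested genes. The median log2 fold change was -0.06, beside -0.00183 over all genes. Because the comparisons with vehicle share the vehicle samples, the likeness of these directions is given as values only. The direct comparison of phenylephrine with IGF1 passed for 4 factors, with Gata4 and Mef2d higher and Gata6 and Tbx5 lower with phenylephrine, beside 54.2% of tested genes (27.1% higher and 27.1% lower). There the samples of 4 factors did not overlap, against 58.8% of tested genes. Without IGF1 replicate 1, the counts higher and lower were 4 and 5 for phenylephrine against vehicle, 3 and 4 for IGF1 against vehicle and 3 and 3 for phenylephrine against IGF1, beside 63.4%, 53.9% and 60.7% of tested genes.

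The calls of the smaller rises depended on how samples were scaled. With scaling by library size only, the median of all genes under phenylephrine moved from -0.03 to -0.22 (log2), and the share of calls that were higher went from 49.1% to 23.5%. That share went from 51.3% to 36.0% for IGF1 against vehicle and from 49.9% to 32.8% for phenylephrine against IGF1. Under that scaling Nkx2-5, Tbx20 and Mef2a were at log2 0.04, 0.08 and 0.03 with adjusted p of 0.56, 0.39 and 0.78, all still above the shifted median. Hand2 then passed as lower (log2 -0.22, adjusted p = 0.021), as did Tead1 (-0.33, 0.0080), while Gata4 still passed as higher and Gata6, Tbx5, Hand1 and Mef2d as lower. With IGF1, the same scaling ended the calls of Nkx2-5 (log2 0.10, adjusted p = 0.12) and Tbx20 (0.13, 0.21), and it also ended that of Mef2d between treatments.

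The ratio of 2 related genes within a sample does not depend on scaling. It gives how the genes moved relative to each other, and does not show which of them rose or fell. Reads of Gata6 over those of Gata4 were 0.428 ± 0.0173 with vehicle, 0.198 ± 0.00644 with phenylephrine and 0.371 ± 0.0651 with IGF1 (SD, n = 3). The phenylephrine samples, at 0.193 to 0.205, lay below every other sample, and IGF1 replicate 1 was the lowest IGF1 sample at 0.297, against 0.418 and 0.398 in IGF1 replicates 2 and 3. Reads of Tbx5 over Tbx20 went from 0.162 ± 0.00539 with vehicle to 0.0882 ± 0.00806 with phenylephrine and 0.120 ± 0.0161 with IGF1 (0.117 and 0.106 in IGF1 replicates 2 and 3), with no overlap of any pair of groups. Mef2a over Mef2d rose from 1.91 ± 0.0620 with vehicle to 2.51 ± 0.0563 with phenylephrine and 2.89 ± 0.164 with IGF1 (3.03 and 2.94 in IGF1 replicates 2 and 3), again with no overlap. Hand1 over Hand2 was 0.251 ± 0.0374, 0.193 ± 0.0289 and 0.181 ± 0.0245 in these groups, and vehicle overlapped phenylephrine but not IGF1. With 3 samples against 3, an exact two-sided permutation test cannot give a p below 0.10, the value found in 9 of the 12 comparisons of these ratios (adjusted over the 12, p = 0.13). The pairs were set up after the levels had been seen, and since genes differ in length a ratio is not a ratio of transcripts.

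**Figure D3:**
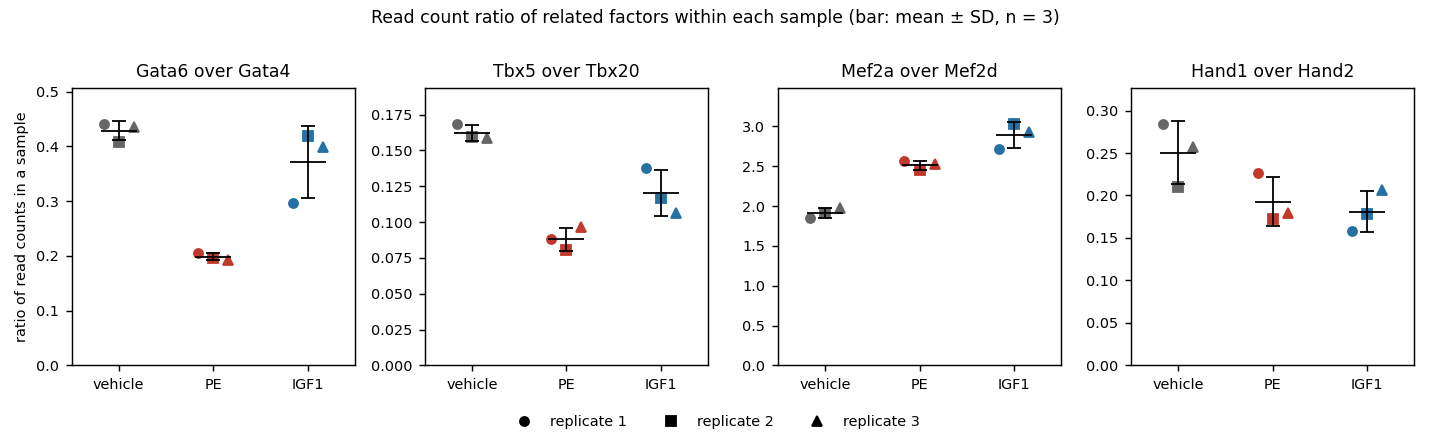
Read counts of a factor divided by those of a related factor in the same sample (y axes from 0), by group, with a marker shape for each replicate number and the mean ± SD of 3 samples. Gata6 over Gata4 falls from 0.428 with vehicle to 0.198 with phenylephrine, and Mef2a over Mef2d rises from 1.91 with vehicle to 2.51 with phenylephrine and 2.89 with IGF1.

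The range between the highest and lowest group mean of log2 CPM was 0.70 for Gata4, larger than that of 74.8% of tested genes, 0.61 for Tbx5 (69.5%) and 0.47 for Hand1 (57.7%). For Gata6 it was 0.41, close to the median of 0.40 over all tested genes, and for the other 6 it was below that median, down to 0.02 for Hand2, which exceeded 0.27% of tested genes. When IGF1 replicate 1 was left out, the range was 0.72 for Gata4, 0.61 for Tbx5, 0.45 for Hand1 and 0.08 for Hand2, beside a median of 0.40. Among the factors themselves, Tbx20 and Mef2a had the most alike profiles, with a root mean square difference of 0.07 log2 units between their centred values over the 9 samples. Mef2d and Tead1 followed at 0.09 and Gata6 and Tbx5 at 0.12, and Gata4 and Tbx5 were farthest apart at 0.56. Over the 8 samples other than IGF1 replicate 1, Tbx20 and Mef2a were still the most alike pair (0.07) and Gata4 and Tbx5 the least (0.59), while Nkx2-5 and Tbx20 (0.07) and Hand2 and Tead1 (0.08) came before Mef2d and Tead1 (0.10).

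By the same measure, over the 9 samples and 9525 other genes with a group mean of at least 5 CPM, the nearest profiles to Gata4 were those of Drap1 (0.04 log2 units), Hspa2 (0.05) and Tsc22d2 (0.05). Those nearest to Tbx5 were Dlg3 (0.06), Wnt9a (0.06) and Rnaseh2a (0.07), and those nearest to Hand1 were Abhd14a (0.10), Dnase2 (0.10) and Fam43a (0.10). The order depended on IGF1 replicate 1. Over the other 8 samples the nearest were Atrn (0.02) for Gata4, with Drap1 at rank 5, Zfp192 (0.05) for Tbx5, with Dlg3 at rank 6, and Nfkbil1 (0.09) for Hand1, with Abhd14a at rank 2. These distances describe likeness over samples that fall into 3 groups.

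Other factors of the heart were read from a list of 24, of which 20 were tested. Mef2c and Tead4 had no row among the files used here, and Isl1 and Tbx1 had too few reads to be tested. With phenylephrine 2 rose and 11 fell (median log2 -0.31, beside -0.03 over all genes), and with IGF1 3 rose and 6 fell (median -0.20; 4 and 7 without IGF1 replicate 1). Over all tested genes 27.9% were higher and 28.9% lower with phenylephrine, and 24.7% and 23.4% with IGF1. Without IGF1 replicate 1, 53.9% of tested genes were called with IGF1. Irx4, an Iroquois factor of ventricular identity, was at 146 to 148 CPM with vehicle, 67.0 to 68.0 CPM with phenylephrine and 189 to 216 CPM with IGF1. No groups overlapped, and the treatments lay on opposite sides of vehicle, 2.18-fold lower with phenylephrine (log2 -1.12, SE 0.05, adjusted p = 1.8e-10) and 1.40-fold higher with IGF1 (log2 0.48, SE 0.05, adjusted p = 8.3e-07, and 0.53 without IGF1 replicate 1). Hopx, a homeodomain-only protein that acts downstream of NKX2-5 and restrains SRF, was lower than vehicle with phenylephrine (log2 -0.69, SE 0.12, adjusted p = 1.3e-04) and higher with IGF1 (log2 0.56, SE 0.11, adjusted p = 5.1e-04, and 0.50 without IGF1 replicate 1). Phenylephrine lay below IGF1 by log2 -1.25 (SE 0.11, adjusted p = 3.2e-07, and -1.19 without that sample).

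Srf, the MADS-box factor of actin and immediate-early genes, rose 1.57-fold with phenylephrine (log2 0.65, SE 0.08, adjusted p = 2.7e-05) and 1.21-fold with IGF1 (log2 0.27, SE 0.08, adjusted p = 0.013). The IGF1 value was 0.16 (adjusted p = 1.5e-04) without IGF1 replicate 1, in which Srf was at 313 CPM against 249.8 and 248 CPM in the other two. Irx3 and Irx5 fell with phenylephrine (log2 -0.92 and -0.68) and with IGF1 (log2 -0.76 and -0.56, and -0.72 and -0.51 without IGF1 replicate 1). Meis2 was the other factor that rose with phenylephrine (log2 0.16, SE 0.05, adjusted p = 0.012). Gata5, the other GATA factor of the heart, named after its values had been seen, was lower with phenylephrine (log2 -0.47, SE 0.05, adjusted p = 1.4e-06) and at log2 0.10 with IGF1 (SE 0.05, adjusted p = 0.093), which passed as higher without IGF1 replicate 1 (log2 0.13, 0.0081).

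Partners and regulators of these factors were read from a list of 25, of which 18 were tested. With phenylephrine 3 rose and 9 fell (median log2 -0.15), beside 56.8% of all tested genes called. With IGF1 7 rose and 5 fell (median -0.05), beside 48.1%. Without IGF1 replicate 1 the counts with IGF1 were again 7 and 5, beside 53.9%. Myocd, the coactivator of SRF, was at 52.0 to 54.8 CPM with vehicle, 94.2 to 102 CPM with phenylephrine and 62.2 to 69.6 CPM with IGF1, with no overlap of groups. It rose 1.81-fold with phenylephrine (log2 0.86, SE 0.05, adjusted p = 4.7e-09) and 1.21-fold with IGF1 (log2 0.27, SE 0.05, adjusted p = 4.8e-04, and 0.22 without IGF1 replicate 1). Smarcd3, a chromatin remodelling subunit that works with GATA4 and TBX5, rose with both (log2 0.55 and 0.37, the latter 0.31 without that sample).

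Of the class IIa deacetylases, which repress MEF2 factors, Hdac4, Hdac5 and Hdac9 were tested. Hdac9 fell 1.71-fold with phenylephrine (log2 -0.78, SE 0.08, adjusted p = 9.5e-07) and lay below IGF1 by log2 -0.75 (SE 0.08, adjusted p = 1.4e-06, and -0.83 without IGF1 replicate 1). Hdac5 fell 1.29-fold with IGF1 (log2 -0.37, SE 0.04, adjusted p = 1.2e-06) and was higher with phenylephrine than with IGF1 (log2 0.40, SE 0.04, adjusted p = 3.6e-07). These were -0.39 and 0.41 without IGF1 replicate 1. Hdac4 was lower with IGF1 (log2 -0.34, adjusted p = 0.0072, and -0.26, 0.014, without that sample) and passed neither with phenylephrine (log2 -0.11, adjusted p = 0.31) nor between treatments (0.22, 0.060). Of the kinases that act on these deacetylases, Prkd1 fell with phenylephrine (log2 -0.73, SE 0.09, adjusted p = 5.8e-06), and Camk2d fell with phenylephrine (log2 -0.43, adjusted p = 2.2e-06) and rose with IGF1 (log2 0.39, SE 0.05, adjusted p = 7.9e-06). Camk2d lay lower with phenylephrine than with IGF1 (log2 -0.81, SE 0.05, adjusted p = 2.0e-09). The IGF1 rise and this difference were 0.44 and -0.87 without IGF1 replicate 1. Yap1, the TEAD coactivator, passed in none of the 3 comparisons (log2 0.01, -0.07 and 0.08), while its relative Wwtr1 fell with phenylephrine (log2 -0.15, SE 0.05, adjusted p = 0.014) and with IGF1 (log2 -0.35, SE 0.05, adjusted p = 2.9e-05, and -0.31 without IGF1 replicate 1).

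**Figure D4:**
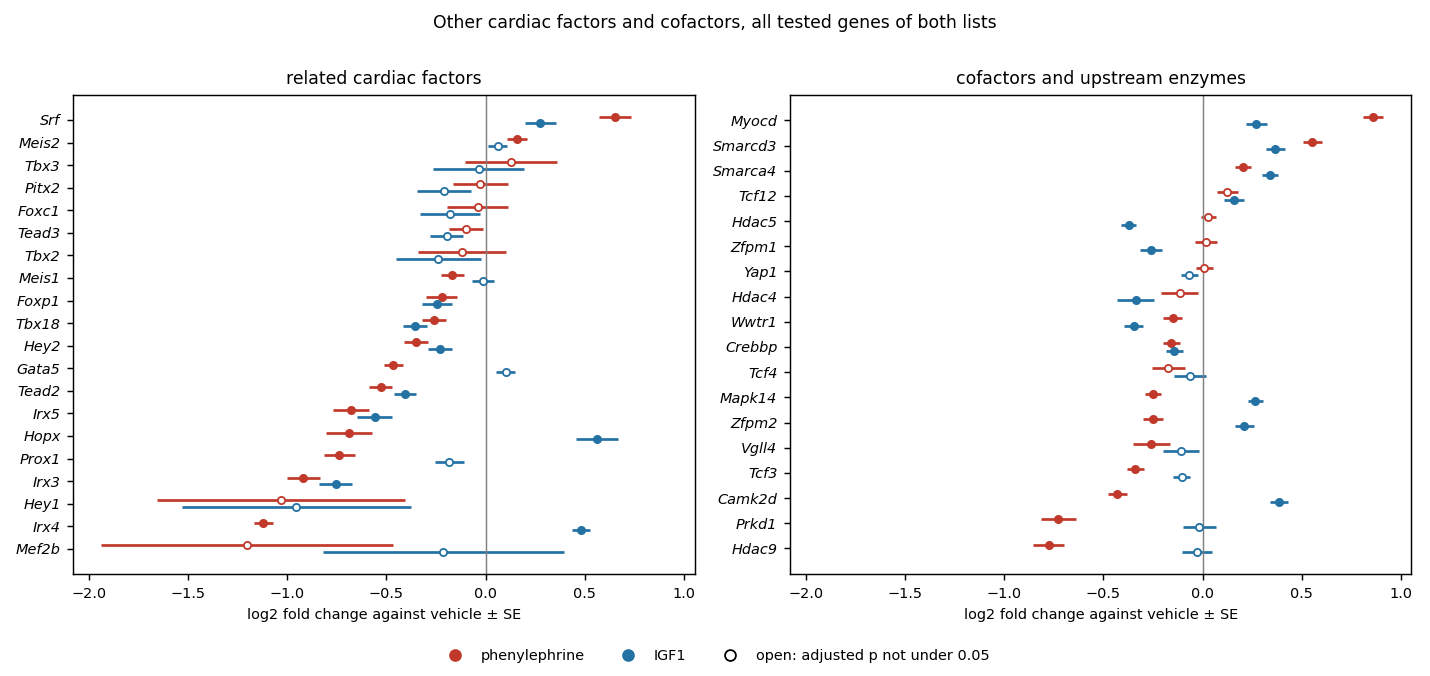
Fitted log2 fold change against vehicle (x axis) with its SE for all 20 tested genes of the related factors and all 18 tested partners and regulators, with phenylephrine and with IGF1, filled where the adjusted p is under 0.05. Irx4 lies at -1.12 with phenylephrine and 0.48 with IGF1, and Myocd at 0.86 and 0.27.

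A list of 29 genes known as targets of these factors, all tested, rose in 15 cases and fell in 9 with phenylephrine (median log2 0.30) and rose in 14 and fell in 5 with IGF1 (median 0.45), beside 27.9% higher and 28.9% lower of all tested genes with phenylephrine and 24.7% and 23.4% with IGF1. In the direct comparison 9 were higher and 12 lower with phenylephrine (median -0.10), beside 27.1% and 27.1% of all tested genes. Without IGF1 replicate 1 the counts with IGF1 were 16 and 11 (median 0.10), beside 53.9% of tested genes called. Of these 29 genes, 10 also stand in the cell type marker lists. The natriuretic peptide genes Nppa and Nppb rose 11.4-fold and 11.3-fold with phenylephrine (adjusted p = 0.0049 and 0.019), and the intercalated disc gene Xirp2, a MEF2 target, rose 11.7-fold (adjusted p = 0.018). Without IGF1 replicate 1 the adjusted p of these 3 genes were 4.2e-25, 4.1e-38 and 1.2e-06. With IGF1, Nppa was at log2 0.94 (SE 0.63, adjusted p = 0.27), and it was lower than vehicle without IGF1 replicate 1 (log2 -0.21, adjusted p = 4.1e-04), as was Nppb (-0.27, 4.6e-07). These rises with phenylephrine exceeded the change of each of the 10 factors, the largest of which was the 1.62-fold rise of Gata4.

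Of the other targets, the creatine kinase gene Ckm was at 1003 to 1056 CPM with vehicle, 488 to 497 CPM with phenylephrine and 1114 to 1219 CPM with IGF1. It fell 2.11-fold with phenylephrine (log2 -1.08, SE 0.05, adjusted p = 1.8e-10). The connexin gene Gja1 also fell with phenylephrine (log2 -0.86), and Gja5, a classical target of TBX5 and NKX2-5, lay lower with phenylephrine than with IGF1 (log2 -1.34, SE 0.08, adjusted p = 6.0e-09, and -1.42 without IGF1 replicate 1). Against vehicle Gja5 was lower with phenylephrine (log2 -0.69, adjusted p = 4.8e-06) and higher with IGF1 (log2 0.65, 7.4e-06, and 0.73 without that sample). The pacemaker channel gene Hcn4 was at 23.5 to 25.4 CPM with vehicle and 51.5 to 61.4 CPM with IGF1, a rise of 2.31-fold (log2 1.21, SE 0.07, adjusted p = 4.4e-09, and 1.27 without IGF1 replicate 1). The light chain gene Myl2 also rose with IGF1 (log2 0.98, SE 0.26, adjusted p = 0.021, and 0.62, 0.0039, without IGF1 replicate 1), and Corin and Nr4a1 fell with it (log2 -0.38 and -0.49, and -0.30 and -0.54 without that sample). With phenylephrine Corin fell (log2 -0.52, adjusted p = 1.1e-05) and Nr4a1 rose (log2 0.93, adjusted p = 4.3e-09). Myh6 rose with phenylephrine (log2 0.30) and with IGF1 (log2 0.65, and 0.66 without that sample). Ctgf, a TEAD target, was higher with phenylephrine than with IGF1 (log2 1.90, SE 0.57, adjusted p = 0.031). It was at 1439 CPM in IGF1 replicate 1 and 360.4 and 362 CPM in IGF1 replicates 2 and 3, and the difference was log2 2.89 (adjusted p = 2.2e-42) without the first of these.

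Several of these factors are also expressed in cardiac fibroblasts and other cells of the heart, and such cultures can hold them. In a bulk sample, fewer cells of a type and less RNA per cell cannot be told apart. The summed level of 10 fibroblast markers was 5048 to 6036 CPM with vehicle, 4687 to 4781 CPM with phenylephrine and 5937 to 6856 CPM with IGF1 (6594 and 6856 without IGF1 replicate 1). Of the 9 tested, 1 rose and 4 fell with phenylephrine, and 5 rose and 1 fell with IGF1, beside 56.8% and 48.1% of all tested genes called. Col1a1 was the largest part of that sum, with means of 3460 CPM with vehicle and 3360 CPM with IGF1. Means of Col3a1 went from 1438 to 2108 CPM with IGF1, of Postn from 466 to 772 CPM and of Pdgfra from 31.3 to 23.9 CPM. Without IGF1 replicate 1, Col1a1, Col3a1, Postn and Pdgfra were at log2 0.02, 0.62, 0.75 and -0.31 against vehicle. The sum of 8 smooth muscle and pericyte markers was 2093 to 2192 CPM with vehicle, 3301 to 3372 CPM with phenylephrine and 1909 to 2611 CPM with IGF1 (1909 and 1982 without IGF1 replicate 1), and 5 of 8 rose and 1 fell with phenylephrine. Acta2 and Tagln were the largest parts of that sum, with means of 806 and 705 CPM with vehicle and 1203 and 886 CPM with phenylephrine. The marker that fell was Myh11 (mean 145 to 118 CPM). The sum of 8 endothelial markers was 69.5 to 78.4 CPM with vehicle, 56.7 to 68.1 CPM with phenylephrine and 28.3 to 34.4 CPM with IGF1 (33.6 and 34.4 without IGF1 replicate 1), with 5 of 8 lower with IGF1, with or without that sample. Kdr was the largest part of the endothelial sum, with means of 44.7 CPM with vehicle and 28.5 CPM with phenylephrine. Its mean was 13.1 CPM with IGF1 (14.4 and 13.6 CPM in IGF1 replicates 2 and 3). Against vehicle, 1 of the 8 endothelial markers rose with phenylephrine, Egfl7 (log2 1.22), and 1 fell, Kdr (log2 -0.65). These counts were 1 and 3 without IGF1 replicate 1.

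The sum of 8 macrophage and leukocyte markers stayed between 66.9 and 85.2 CPM and that of 6 epicardial markers between 37.7 and 51.6 CPM over all samples. With phenylephrine 2 of the 8 leukocyte markers fell and none rose, and 1 of the 6 epicardial markers rose and 2 fell. With IGF1 1 leukocyte marker and 2 epicardial markers fell and none rose. Of the 11 cardiomyocyte markers, 7 rose and 4 fell with phenylephrine, and 7 rose and 1 fell with IGF1 (7 and 2 without IGF1 replicate 1). Beside these marker counts, 56.8% of all tested genes were called with phenylephrine and 48.1% with IGF1 (53.9% without IGF1 replicate 1). No marker was at 0 in a whole group, but Col1a2, of the fibroblast markers, had only 1 to 10 reads a sample and was not tested. The part of these markers in the changes of the 10 factors was not tested.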

How the data were processed

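RNA sequencing of 9 samples of neonatal rat ventricular myocytes was read from a table of read counts that the authors deposited, as whole numbers per gene and not normalized. The submitters' processing notes name STAR, HTSeq and DESeq and the rn5 rat build. Versions, the annotation and whether counting used strand are not given in the sources used here, so reads of an antisense neighbour cannot be told apart from those of a gene. Genes are named by symbol, and all 10 factors matched a RefSeq symbol. Promoter windows came from RefSeq on GRCr8, and no coordinate was moved between builds.

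The filterByExpr function of edgeR 4.0.16, with a minimum count of 10 and a minimum total of 15, kept 11873 genes with 99.99% of the counts, and 26 rows carry names turned into dates. After scaling by trimmed mean of M-values (TMM) factors, group was fitted over the 9 samples in a quasi-likelihood model with the robust option, in R 4.3.3. Every adjusted p is from its F test with Benjamini-Hochberg adjustment over all genes tested, unless another is named. The SE was computed from the fold change and F, and carries the spread of all 3 groups. Profiles used log2 CPM with a prior count of 2. The test was run on simulated data with known changes beforehand. DESeq2 1.42.0, limma-voom (limma 3.58.1), other scalings, filters, a replicate block and leaving out each sample were the alternatives.

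The rule for naming genes took all 10 factors, from each of 3 further lists up to 4 genes a comparison (the 2 highest and 2 lowest past the threshold), always Srf, Myocd, Tead4, Yap1, Nppa, Nppb and Myh6, and the 3 nearest profiles of the 3 factors with the widest range. The factors, lists and rule were chosen with earlier results of these data known. Samples with the same replicate number showed almost no correlation of their deviations from the group means, which does not settle if they shared a preparation.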

Additional observations from a re-analysis of the deposited data

How the results depend on the processing

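Each of the 30 results of a factor in a comparison was recomputed under 20 alternatives. Of these 600 values, 543 kept their direction and their side of the threshold, 28 kept the direction and lost the call, 10 gained one and 19 changed sign. The rises of Gata4 and falls of Gata6, Tbx5 and Mef2d with phenylephrine, the fall of Hand1 and Mef2d and rise of Mef2a with IGF1, and the differences of Gata4, Gata6 and Tbx5 between treatments held in all 20. The cause of the changes was not tested. Scaling by library size only called 1751 genes higher and 5696 lower with phenylephrine (against 3310 and 3429) and 2132 higher for phenylephrine against IGF1 (3215), and it left 1 factor higher in each of the 3 comparisons (against 4, 3 and 2). A threshold of 0.01 left 1 factor higher and 2 lower with IGF1 (against 3 and 4) and 1 higher in the direct comparison, as did upper quartile factors there. Leaving out 1 sample gave 1 to 3 factors higher and 2 to 5 lower with IGF1, with 1 higher without vehicle replicate 1 or 3 and 2 lower without vehicle replicate 1. It gave 1 to 3 higher in the direct comparison, with 1 without phenylephrine replicate 2. With all samples and the main settings, 48.1% of tested genes passed with IGF1 and 54.2% in the direct comparison. Shares of all genes under each alternative are not set beside these counts. The counts therefore do not show if the factors lost calls more often than other genes.

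The sign changes were all of values that did not pass. In the direct comparison, scaling by library size only gave log2 -0.067 for Nkx2-5, -0.049 for Tbx20, -0.039 for Hand1 and -0.098 for Tead1, upper quartile factors gave -0.012 for Tead1, and limma-voom gave 0.00035 for Hand2. Leaving out 1 sample gave -0.020 to 0.13 for Nkx2-5, -0.0057 to 0.14 for Hand1, -0.061 to 0.058 for Hand2 and -0.060 to 0.064 for Tead1 there. It gave -0.11 to 0.022 for Hand2 with phenylephrine, and -0.022 to 0.19 for Gata4 and -0.089 to 0.040 for Hand2 with IGF1.

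For samples with the same replicate number, the correlation of their deviations from the group means ran from -0.08 to 0.02. With 3 samples a group and IGF1 replicate 1 apart, such values cannot show if these samples shared a culture or preparation. With a replicate block, 3253 genes were higher and 3395 lower with phenylephrine, with 4 and 5 of the factors, and 5 factors were lower with IGF1. Without the block, 4 factors and 23.4% of all tested genes were lower with IGF1, and the share under the block is not given here. Hand1, with 141 to 382 reads a sample, was the factor most limited by depth.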
